A study of Homo sapiens with 18 samples.

Results

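ERDD was compared with ERPHF8 on day 3, in 4 of the 18 poly(A) RNA-seq libraries of a study in THP-1 cells, an established line from a human acute monocytic leukaemia with the MLL-AF9 fusion. ERDD is the derivative whose genotype label reads PHF8DD and whose treatment label is 4-OHT (4-hydroxytamoxifen, a ligand of the oestrogen receptor), given at 100 nM for the induction of that form per the labels' protocols, with 2 libraries. ERPHF8 is the derivative with the genotype label PHF8 and no treatment named, also with 2 libraries. The form of PHF8 and the drug cannot be told apart in this comparison. A derivative called ERAA (genotype label PHF8AA, also labelled 4-OHT, 2 libraries, the same day) entered the same fit and its levels are given side by side, but it is not an untreated control. All groups were THP-1 cells kept in DMEM with fetal bovine serum. The labels do not spell out the letters AA, DD and ER, and do not say whether a derivative is a single clone or whether its libraries came from separate cultures. The p-values therefore measure only the spread between these libraries, which may be technical.

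PHF8 is a histone demethylase of the Jumonji family that removes methyl groups from lysines of histones H3 and H4 and has a PHD finger that reads a methylated H3 tail. The study's title places it between the type I interferon response and self-renewal in acute myeloid leukaemia. Type I interferon binds its receptor and activates transcription factors, STAT2 and IRF9 among them, which induce antiviral genes through a DNA element known as the interferon-stimulated response element. The integrated stress response works differently: kinases that sense amino acid shortage, unfolded protein or other stress slow translation, and the transcription factor ATF4 then induces genes for amino acid synthesis and transport. Both are read here through their target transcripts.

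The 4 libraries held 40.6 to 41.3 M reads, so 3 reads corresponded to about 0.073 CPM (counts per 1e6 reads in that library). PHF8 itself was measured at 1098 and 1119 CPM in ERDD, 1900.0 and 1912 in ERPHF8 and 2305 and 1995 in ERAA, so that both ERDD libraries were below both ERPHF8 libraries (log2 change -0.78, SE 0.07, limma adjusted p = 9.4e-05). ESR1, the oestrogen receptor gene, stood at 124 and 126 CPM in ERDD, 229 and 230.3 in ERPHF8 and 275 and 247 in ERAA (log2 change -0.87, SE 0.05, limma adjusted p = 1.8e-05), although its span overlaps SYNE1 and may share reads with it. The ratio of ESR1 to PHF8 CPM was 0.113 in both ERDD libraries, 0.121 and 0.120 in ERPHF8, and 0.119 and 0.124 in ERAA. The amount of PHF8 transcript thus differed between the groups along with the form and the drug, and its part in the results was not tested. The labelled monocytic identity was checked against markers: CD33, CD68, SPI1, LYZ, ITGAM and CSF1R stood at 63.0 CPM or more in all 4 libraries. The other 2 markers of the list were low, with CD14 at 9.46 to 10.8 CPM and MPO at 2.98 to 6.23 CPM. Of the markers of other lineages, 7 of 18 reached 1 CPM in any of the 4, among them the natural killer cell marker NCAM1 at 5.78 to 10.4 CPM. Summed over those 18 markers, CPM was 24.6 and 25.4 in ERDD and 20.6 and 21.5 in ERPHF8, with PF4 at 0 in all. In bulk RNA, fewer cells of a type and less RNA per cell cannot be told apart.

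Of 13831 genes tested, 7305 (52.8%) had a Benjamini-Hochberg adjusted p below 0.05 in limma; 3428 (24.8%) were higher and 3877 (28.0%) lower in ERDD. The higher and lower shares are the background for every count of list members below. Most of the called differences were small. Only 143 genes (1.03%) were called and at least 2-fold higher, and 195 (1.41%) called and at least 2-fold lower, while 3236 of the 7305 differed by less than 1.25-fold. The 2 groups did not overlap for 84.0% of all genes tested, so separation alone says little about a gene. GC content and gene length moved with the calls. The median GC content of transcripts was 53.7% in genes called higher and 45.8% in genes called lower, and their spans had medians of 21.9 and 47.8 kb. With both smoothed out in each library, 7306 genes were called, among them 6093 of the 6946 called genes that could be fitted that way. Without ERDD library 1, ERDD library 2 or ERPHF8 library 2 the count was 4458, 4254 or 4461.

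The interferon-stimulated genes rose in ERDD almost as a whole. Of 71 members tested, 68 rose, 46 of them at least 2-fold, and 2 fell, with a median log2 change of 1.22 against -0.02 over all genes tested. The members are transcripts known to be induced by interferon, and the antiviral effectors among them are described first. MX1, a dynamin-like GTPase that blocks viral replication, was measured at 457 and 462 CPM in ERDD, 106 and 107 in ERPHF8 and 17.6 and 17.5 in ERAA (log2 change 2.10, SE 0.04, limma adjusted p = 1.3e-07). The mean of MX1 was 4.32-fold higher in ERDD than in ERPHF8, and ERAA stood below both groups. IFI27, a small mitochondrial membrane protein, was at 119 and 124 CPM in ERDD, 11.9 and 13.2 in ERPHF8 and 1.28 and 1.54 in ERAA, a 9.67-fold difference between ERDD and ERPHF8 (log2 change 3.23, SE 0.09, limma adjusted p = 5.7e-07). ISG15, a ubiquitin-like modifier, was at 178 and 179 CPM in ERDD, 36.1 and 37.5 in ERPHF8 and 10.4 and 11.9 in ERAA (log2 change 2.27, SE 0.07, limma adjusted p = 6.7e-07). IFI44L was at 175 and 171 CPM in ERDD, 31.8 and 30.8 in ERPHF8 and 2.29 and 2.63 in ERAA (log2 change 2.45, SE 0.07, limma adjusted p = 6.3e-07). In each of these the replicates of a group were close and the order was ERDD, then ERPHF8, then ERAA.

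The promoters of the 4 members with the smallest p among those with a RefSeq window are shown, because each holds the letters of an element known from genes of this kind. RefSeq windows on GRCh38.p14, running from 250 bases before to 50 bases after the annotated start, were matched for 51 of the 71 members. The core of the interferon-stimulated response element, searched on both strands as GAAA, any 2 bases and GAAA, stands in 33 of the 51 windows (64.7%), against 1255 of 35116 windows of the same length (3.57%). Such a match is a description of the sequence and not a measured binding site. Capitals mark each match. The windows are MX1 at chr21:41420308-41420607, plus strand; IFIT3 at chr10:89327747-89328046, plus strand; IFI27 at chr14:94110486-94110785, plus strand; and IFI44L at chr1:78620198-78620497, plus strand.
MX1: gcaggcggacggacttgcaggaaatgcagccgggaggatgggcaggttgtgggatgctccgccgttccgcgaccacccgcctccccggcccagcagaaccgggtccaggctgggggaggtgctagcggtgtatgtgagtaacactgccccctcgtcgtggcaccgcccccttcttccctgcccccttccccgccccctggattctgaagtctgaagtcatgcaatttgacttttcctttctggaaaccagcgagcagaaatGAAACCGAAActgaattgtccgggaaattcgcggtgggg
IFIT3: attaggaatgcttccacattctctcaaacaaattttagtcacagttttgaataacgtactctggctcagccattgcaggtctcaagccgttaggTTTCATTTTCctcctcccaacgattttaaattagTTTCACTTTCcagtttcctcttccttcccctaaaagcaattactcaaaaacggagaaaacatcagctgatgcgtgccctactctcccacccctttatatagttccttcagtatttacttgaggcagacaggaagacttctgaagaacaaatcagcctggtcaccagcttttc
IFI27: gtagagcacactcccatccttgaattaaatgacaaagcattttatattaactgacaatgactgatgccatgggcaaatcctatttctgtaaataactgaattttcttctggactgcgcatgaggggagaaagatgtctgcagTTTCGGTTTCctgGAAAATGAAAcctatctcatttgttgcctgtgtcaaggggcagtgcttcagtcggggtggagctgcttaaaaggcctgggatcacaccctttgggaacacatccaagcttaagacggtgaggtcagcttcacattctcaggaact
IFI44L: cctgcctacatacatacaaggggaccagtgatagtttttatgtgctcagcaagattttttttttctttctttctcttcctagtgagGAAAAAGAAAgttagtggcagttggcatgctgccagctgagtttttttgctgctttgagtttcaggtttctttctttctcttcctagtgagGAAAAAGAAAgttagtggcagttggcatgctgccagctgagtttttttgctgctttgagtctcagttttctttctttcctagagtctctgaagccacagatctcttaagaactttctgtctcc

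IFI27 and IFI44L hold 2 matches each, as does IFIT3, whose reads are shared with LIPA because the LIPA span covers the IFIT cluster; MX1 holds 1, which begins 11 bases after the annotated start. IFIT3, which binds viral RNA together with IFIT1, was at 203 and 199.6 CPM in ERDD, 49.9 and 50.3 in ERPHF8 and 16.2 and 17.8 in ERAA (log2 change 1.99, SE 0.05, limma adjusted p = 5.7e-07). OAS1, which had no match in its window, rose as well (log2 change 1.46), so a match was not a feature of every member that rose.

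The oligoadenylate synthetases, which make the second messenger that switches on RNase L, rose along with the related OASL. OAS2 was at 493 and 481 CPM in ERDD, 145 and 142 in ERPHF8 and 35.3 and 35.2 in ERAA (log2 change 1.76, SE 0.04, limma adjusted p = 2.3e-07). OAS3 was at 663 and 671 CPM in ERDD, 179 and 179 in ERPHF8 and 44.6 and 38.6 in ERAA (log2 change 1.90, SE 0.06, limma adjusted p = 8.8e-07). OAS1 and OASL had log2 changes of 1.46 and 1.49. None of the 4 had overlapping groups, as was the case for most genes tested (share given above). OAS3 also had one of the 6 largest gains in mean CPM of all genes without an overlapping neighbour.

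Some carriers of the interferon signal rose too. IRF7, the factor that amplifies type I interferon production, was at 124 and 131 CPM in ERDD, 49.8 and 49.8 in ERPHF8 and 24.4 and 25.6 in ERAA (log2 change 1.35, SE 0.05, limma adjusted p = 1.2e-06). STAT2 and IRF9, which act in the type I signalling complex, had log2 changes of 0.39 (adjusted p = 0.0011) and 0.67 (adjusted p = 8.4e-05) by limma. USP18, which shuts off signalling at the receptor, was at 46.4 and 46.0 CPM in ERDD, 13.6 and 13.2 in ERPHF8 and 5.36 and 5.12 in ERAA (log2 change 1.75, SE 0.06, limma adjusted p = 1.2e-06), so this brake rose with the effectors. The cytosolic RNA sensors DDX58 (RIG-I), IFIH1 (MDA5) and DHX58 (LGP2) rose by 1.04, 1.00 and 1.31 on the log2 scale.

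Among the remaining members, SIGLEC1, a sialic acid receptor of interferon-exposed monocytes, was at 173 and 173 CPM in ERDD, 56.1 and 60.2 in ERPHF8 and 15.6 and 12.4 in ERAA (log2 change 1.57, SE 0.09, limma adjusted p = 1.6e-05). BST2 (tetherin), which holds budding virus at the cell surface, was at 475 and 443 CPM in ERDD, 201 and 199 in ERPHF8 and 111 and 127 in ERAA (log2 change 1.20, SE 0.06, limma adjusted p = 9.2e-06). Both were lowest in ERAA. CXCL10, a chemokine, stood at low levels, with 1.54 and 1.67 CPM in ERDD, 0.197 and 0.662 in ERPHF8 and 0.0737 and 0 in ERAA (log2 change 1.22, SE 0.24, limma adjusted p = 0.0039). GBP1, a guanylate-binding GTPase that responds strongly to interferon gamma, was at 5.46 and 5.26 CPM in ERDD, 1.08 and 1.32 in ERPHF8 and 0.246 and 0.146 in ERAA (log2 change 1.79, SE 0.14, limma adjusted p = 6.0e-05). In the same family GBP4 rose by 1.06 on the log2 scale, while GBP2 and GBP5 had log2 changes of only 0.40 and 0.31. The IFITM genes are near-identical neighbours, so the log2 changes of 1.68, 1.22 and 1.61 for IFITM1, IFITM2 and IFITM3 are uncertain as single values.

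The exceptions were few. APOL6, an apolipoprotein L family member, was at 125 and 122 CPM in ERDD, 192 and 195 in ERPHF8 and 239 and 211 in ERAA and fell (log2 change -0.64, SE 0.06, limma adjusted p = 1.2e-04). TDRD7 fell by little (log2 change -0.14, SE 0.04, limma adjusted p = 0.022), and DDX60L did not pass the test (log2 change 0.12, limma adjusted p = 0.34). The mean level of the list, as log2(CPM + 0.5) averaged over its members, was 6.66 and 6.66 in ERDD, 5.49 and 5.51 in ERPHF8 and 4.57 and 4.52 in ERAA. The lowest ERDD mean was thus above every ERPHF8 mean, and every ERPHF8 mean above every ERAA mean. In a separate set of libraries of this series, which shares none with the present ones, the derivative labelled PHF8 against the parental cells gave log2 changes of 0.74 for IFI27 and 1.16 for OAS3, both called (limma adjusted p = 0.014 and 0.002), and of 0.85 for MX1 and -0.04 for ISG15, neither of them called (0.13 and 0.92).

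**Figure D1:**
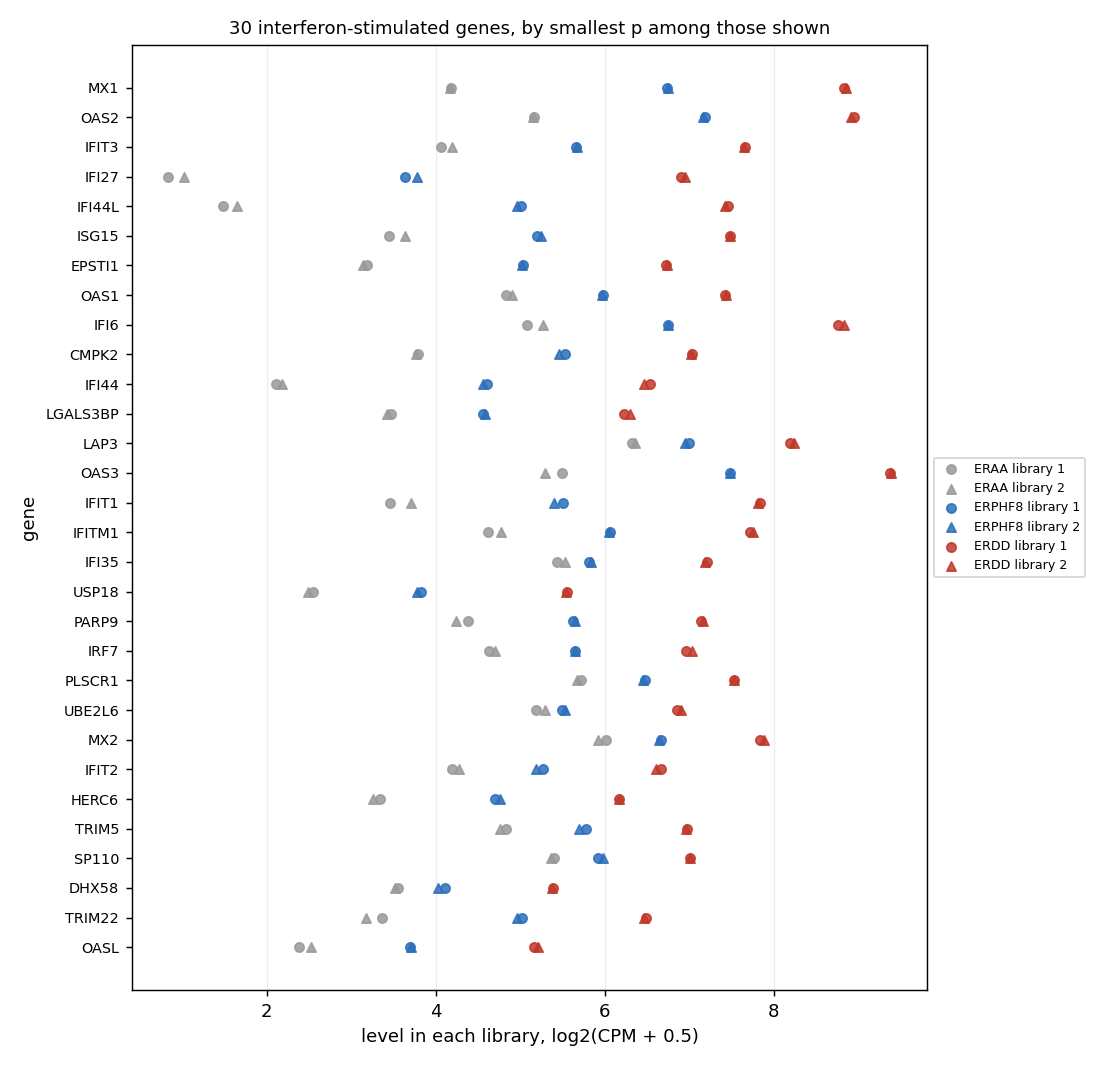
Level of 30 interferon-stimulated genes, those with the smallest p among the genes shown, as log2(CPM + 0.5) on the horizontal axis, 1 gene per row, with circles for library 1 and triangles for library 2 of ERDD (red), ERPHF8 (blue) and ERAA (grey). In each row shown the red points lie to the right of the blue ones, as for MX1 with 457 and 462 CPM in ERDD and 106 and 107 CPM in ERPHF8, and the grey points lie to the left of both.

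The interferons themselves gave almost no reads. None of the 21 interferon genes in the table passed the filter of 1 CPM, and none exceeded 6 reads in any of the 4 libraries. Their reads summed to 13 and 16 in ERDD, 3 and 9 in ERPHF8, and 7 and 5 in ERAA. IFNB1, the interferon made first by most cells, had 4 and 5 reads in ERDD, 1 and 2 in ERPHF8 and 1 and 1 in ERAA. Most of these counts are at or under 3 reads, and no fold change is given for them.

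Genes that sense nucleic acid and transmit the signal moved in both directions, but falls were rarer than over all genes tested. The list had 43.3% higher and 10% lower, against 24.8% and 28.0% over all genes. Of 30 tested, 13 rose and 3 fell, with a median log2 change of 0.09; the rises numbered 7, 6, 8 or 8 without ERDD library 1, ERDD library 2, ERPHF8 library 1 or ERPHF8 library 2, and the falls numbered 7 without either ERAA library. IFI16, a nuclear and cytosolic DNA sensor, was at 198 and 198 CPM in ERDD, 94.5 and 93.6 in ERPHF8 and 59.2 and 55.1 in ERAA (log2 change 1.07, SE 0.05, limma adjusted p = 2.8e-06). MYD88, the adaptor of most Toll-like receptors, was at 112 and 115 CPM in ERDD, 61.1 and 62.1 in ERPHF8 and 58.8 and 59.6 in ERAA (log2 change 0.88, SE 0.04, limma adjusted p = 5.1e-06). UNC93B1, which carries the endosomal Toll-like receptors to their compartment, was at 247 and 247 CPM in ERDD, 166 and 159 in ERPHF8 and 135 and 134 in ERAA (log2 change 0.60, SE 0.04, limma adjusted p = 2.7e-05). The chains of the type I interferon receptor were not called: IFNAR1 and IFNAR2 had log2 changes of -0.02 and -0.15 (limma adjusted p = 0.77 and 0.12), JAK1 -0.06 and IRF3 0.09, none of which passed. TMEM173 (STING), the adaptor of the cGAS pathway, was at 351 and 360.5 CPM in ERDD, 446 and 439.7 in ERPHF8 and 511 and 536 in ERAA and fell (log2 change -0.32, SE 0.04, limma adjusted p = 6.7e-04). MAVS, the mitochondrial adaptor of the RNA sensors, fell as well (log2 change -0.28), and MB21D1 (cGAS) did not pass (-0.02).

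Genes that restrain interferon signalling or clear nucleic acid also split, with 10 higher and 7 lower of 21 (median 0.15); leaving out ERDD library 1, ERDD library 2, ERPHF8 library 1 or ERPHF8 library 2 gave 5, 5, 6 or 5 rises, and the falls numbered 3, 3, 4 or 3. With all libraries in the fit, 47.6% of the list rose and 33.3% fell, against 24.8% and 28.0% over all genes. Of its 12 members without an overlapping gene, 5 rose and 4 fell (median 0.002). The log2 changes of the list ran from -0.46 to 0.80. ADAR, which edits double-stranded RNA and has an interferon-induced isoform, was at 781 and 790.1 CPM in ERDD, 514 and 521 in ERPHF8 and 363 and 335 in ERAA (log2 change 0.60, SE 0.05, limma adjusted p = 6.4e-05). DNASE2, the lysosomal DNase, was at 79.7 and 81.0 CPM in ERDD, 46.5 and 45.4 in ERPHF8 and 60.5 and 67.3 in ERAA (log2 change 0.80, SE 0.06, limma adjusted p = 3.9e-05). In antigen presentation by MHC class I, 12 of 21 rose (57.1%) and 1 fell (4.76%), with a median of 0.27. TAP1, a subunit of the peptide transporter, was at 196 and 200.2 CPM in ERDD, 107 and 106 in ERPHF8 and 114 and 120.0 in ERAA (log2 change 0.89, SE 0.04, limma adjusted p = 5.2e-06), with reads shared with PSMB9 next to it. Of the 10 members whose span overlaps no other gene, 3 rose (30%, median 0.14), near the 24.4% over all such genes. The HLA genes of the list are near-identical to one another and are not given singly.

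Targets of the integrated stress response fell in ERDD. Of 30 genes for this response and for amino acid supply, 0 rose and 28 fell, 10 of them at least 2-fold, with a median log2 change of -0.84; limma at an unadjusted p below 0.05 and voom on whole reads also gave 0 rises. CHAC1, a glutathione-degrading enzyme induced by ATF4, was at 7.07 and 7.10 CPM in ERDD, 43.5 and 42.5 in ERPHF8 and 47.6 and 52.0 in ERAA (log2 change -2.52, SE 0.06, limma adjusted p = 3.9e-07). The ERDD mean was 6.07-fold lower than the ERPHF8 mean, and both ERAA libraries stood above ERPHF8. DDIT4 (REDD1), an inhibitor of mTOR complex 1 that belongs to the p53-linked list, moved alike, with 63.8 and 64.6 CPM in ERDD, 336 and 320.2 in ERPHF8 and 375 and 395 in ERAA (log2 change -2.34, SE 0.04, limma adjusted p = 1.3e-07). SESN2, a leucine sensor of the same pathway, was at 17.0 and 16.8 CPM in ERDD, 54.8 and 53.9 in ERPHF8 and 56.6 and 55.2 in ERAA (log2 change -1.66, SE 0.05, limma adjusted p = 6.7e-07).

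The regulators of the response fell with its targets. ATF4 was at 258 and 261 CPM in ERDD, 483 and 478 in ERPHF8 and 698 and 824 in ERAA (log2 change -0.89, SE 0.07, limma adjusted p = 6.7e-05). DDIT3 (CHOP), its pro-apoptotic partner, was at 13.5 and 12.7 CPM in ERDD, 25.5 and 24.7 in ERPHF8 and 22.8 and 26.1 in ERAA (log2 change -0.91, SE 0.08, limma adjusted p = 8.8e-05), with reads possibly shared with MARS. TRIB3, a pseudokinase that feeds back on ATF4, was at 45.8 and 44.4 CPM in ERDD, 95.8 and 98.3 in ERPHF8 and 161 and 168 in ERAA (log2 change -1.10, SE 0.04, limma adjusted p = 1.9e-06). ATF3 fell (log2 change -0.51) but differed from the others in ERAA, where it stood at 6.56 and 6.85 CPM, close to the 6.12 and 6.42 CPM of ERDD and under the 8.96 and 9.27 CPM of ERPHF8. PPP1R15A (GADD34), the phosphatase subunit that ends the response, did not pass (log2 change 0.07, limma adjusted p = 0.36).

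Enzymes of amino acid synthesis fell together. PSAT1, PHGDH and PSPH, the 3 steps of serine synthesis, had log2 changes of -1.33, -0.88 and -0.90; PSAT1 was at 142 and 139.8 CPM in ERDD, 357 and 351 in ERPHF8 and 598 and 601 in ERAA (SE 0.04, limma adjusted p = 6.3e-07). ASNS, which makes asparagine, was at 46.2 and 44.6 CPM in ERDD, 110.4 and 106 in ERPHF8 and 247 and 251 in ERAA (log2 change -1.24, SE 0.04, limma adjusted p = 9.1e-07). ASS1, an enzyme of arginine synthesis, was at 50.9 and 54.1 CPM in ERDD, 122 and 129.6 in ERPHF8 and 445 and 499.7 in ERAA (log2 change -1.25, SE 0.06, limma adjusted p = 6.7e-06). For each of these the ERAA libraries were the highest of the 6, so that the order was ERAA, ERPHF8, ERDD. MTHFD2 and SHMT2 of the mitochondrial one-carbon cycle fell by 0.97 and 0.62 on the log2 scale, each with a gene overlapping its span.

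Amino acid transporters and tRNA ligases fell to different degrees. SLC7A11, the cystine transporter, was at 25.5 and 24.3 CPM in ERDD, 103 and 120.0 in ERPHF8 and 87.9 and 68.0 in ERAA (log2 change -2.14, SE 0.12, limma adjusted p = 9.5e-06); both ERDD libraries were lowest, while ERPHF8 was here above ERAA. SLC7A5, the large neutral amino acid transporter, was at 281 and 285 CPM in ERDD, 493 and 490.4 in ERPHF8 and 549 and 561 in ERAA (log2 change -0.80, SE 0.04, limma adjusted p = 5.0e-06), and its partner chain SLC3A2 fell by 0.40 on the log2 scale. Of the ligases that charge tRNA, CARS, GARS, AARS and SARS had log2 changes of -0.70, -0.60, -0.38 and -0.19, all called, and WARS 0.00, not called (limma adjusted p = 0.97). WARS, the ligase for tryptophan, is also known to be induced by interferon gamma.

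The windows of CHAC1 and ASNS are shown for the letters TGATGNAA, a common form of the C/EBP-ATF response element, searched on both strands; this motif was chosen after the values had been seen. A match stands in 6 of the 25 members with a RefSeq window (24%), against 1270 of 35116 windows (3.62%). Most members hold no match, which says only that these letters are not in the window. Capitals mark the match. The windows are CHAC1 at chr15:40953221-40953520, plus strand and ASNS at chr7:97872359-97872658, minus strand, on GRCh38.p14 as above.
CHAC1: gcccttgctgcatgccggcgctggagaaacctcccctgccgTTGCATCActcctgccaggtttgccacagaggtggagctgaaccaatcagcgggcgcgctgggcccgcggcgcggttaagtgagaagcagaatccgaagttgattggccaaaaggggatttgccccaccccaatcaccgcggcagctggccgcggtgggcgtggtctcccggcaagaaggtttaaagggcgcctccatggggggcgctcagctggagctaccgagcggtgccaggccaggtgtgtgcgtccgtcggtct
ASNS: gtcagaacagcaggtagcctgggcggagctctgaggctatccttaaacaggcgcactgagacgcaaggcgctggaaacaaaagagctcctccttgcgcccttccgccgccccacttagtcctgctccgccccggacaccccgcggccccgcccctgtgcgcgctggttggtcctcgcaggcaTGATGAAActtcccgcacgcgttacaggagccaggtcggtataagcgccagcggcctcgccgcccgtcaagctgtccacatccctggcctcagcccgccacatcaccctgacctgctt

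**Figure D2:**
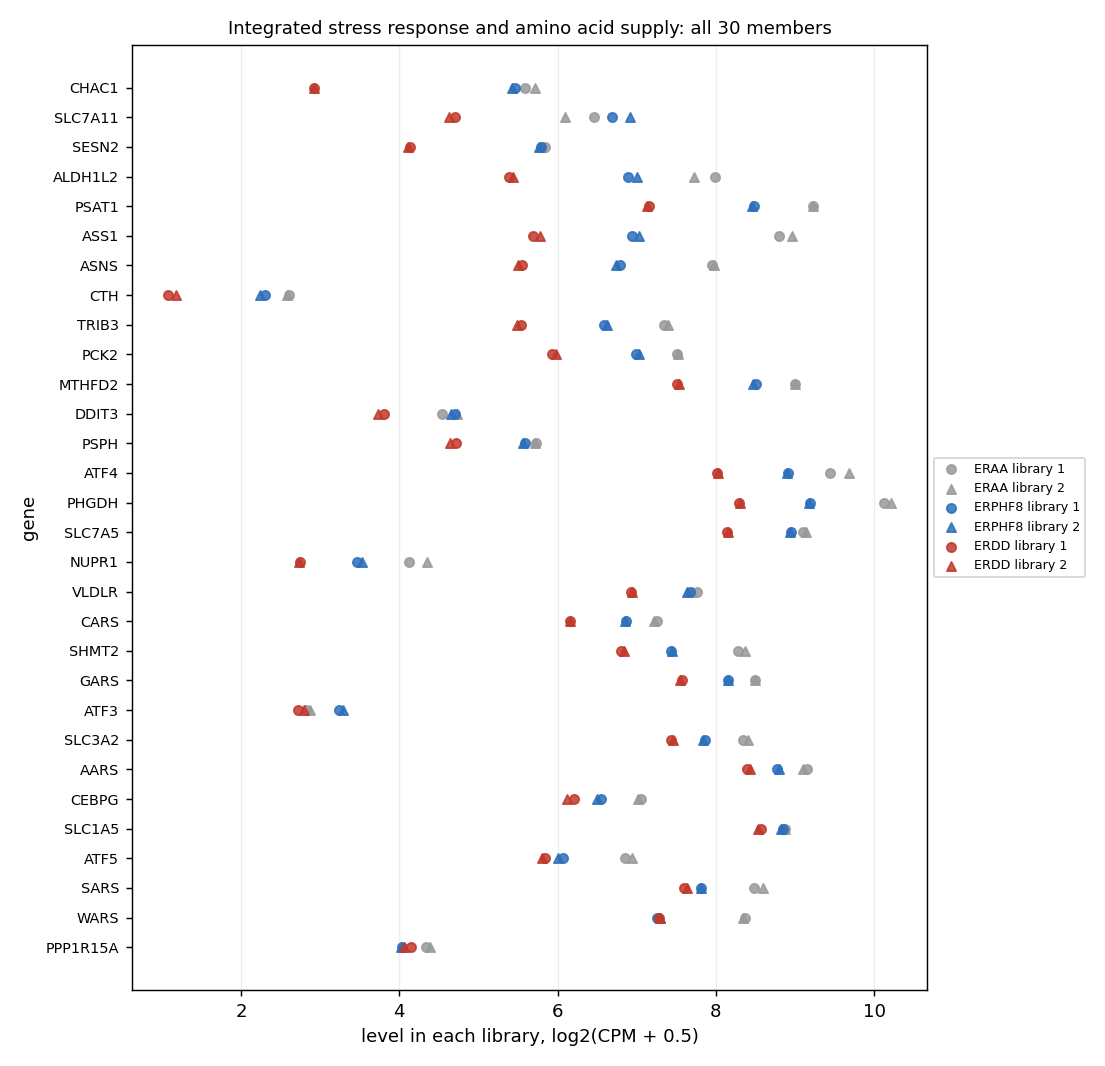
Level of all 30 genes of the integrated stress response and amino acid supply, as log2(CPM + 0.5) on the horizontal axis, 1 gene per row from the largest fall at the top, with circles for library 1 and triangles for library 2 of ERDD (red), ERPHF8 (blue) and ERAA (grey). The red points lie to the left of the blue ones in the 28 rows called lower, as for CHAC1 at the top, and the points of PPP1R15A and WARS at the bottom lie together for ERDD and ERPHF8.

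Heat shock and endoplasmic reticulum chaperones rose while those stress targets fell. Of 24 tested, 20 rose and 2 fell, with a median log2 change of 0.61. HSPA8, the constitutive cytosolic HSP70, had the largest gain in mean CPM of all genes without an overlapping neighbour and was at 3918 and 3906 CPM in ERDD, 2131 and 2094 in ERPHF8 and 1145 and 1198 in ERAA (log2 change 0.89, SE 0.05, limma adjusted p = 8.5e-06). HSP90AB1, a constitutive HSP90, was at 3667 and 3633 CPM in ERDD, 2531 and 2490.2 in ERPHF8 and 1926 and 1999 in ERAA (log2 change 0.54, SE 0.05, limma adjusted p = 1.1e-04). HSPA1B, a stress-inducible HSP70, was at 83.5 and 80.9 CPM in ERDD, 26.7 and 26.2 in ERPHF8 and 27.5 and 27.8 in ERAA (log2 change 1.62, SE 0.05, limma adjusted p = 6.7e-07). Its near-identical copy HSPA1A had a log2 change of 1.29, and reads may be split between them. BAG3, a co-chaperone of HSP70, was at 99.9 and 105 CPM in ERDD, 56.7 and 56.3 in ERPHF8 and 46.2 and 45.2 in ERAA (log2 change 0.85, SE 0.05, limma adjusted p = 8.9e-06).

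The chaperones of the secretory pathway were also higher, with exceptions. HSPA5 (BiP), the main HSP70 of the endoplasmic reticulum, was at 968 and 993 CPM in ERDD, 656 and 648 in ERPHF8 and 513 and 522 in ERAA (log2 change 0.59, SE 0.04, limma adjusted p = 2.9e-05). CALR, a lectin chaperone, was at 2242 and 2305 CPM in ERDD, 1418 and 1423 in ERPHF8 and 773 and 852 in ERAA (log2 change 0.68, SE 0.05, limma adjusted p = 7.1e-05), and SDF2L1, PDIA4 and MANF rose by 0.91, 0.62 and 0.71. Of the other members, HERPUD1 fell (log2 change -0.48, limma adjusted p = 1.0e-04), EDEM1 fell (log2 change -0.32, limma adjusted p = 8.6e-04), and SEL1L had a log2 change of -0.04 (limma adjusted p = 0.53). XBP1, the transcription factor that induces many endoplasmic reticulum chaperones, was at 127 and 129 CPM in ERDD, 247 and 238 in ERPHF8 and 279.5 and 299.8 in ERAA and fell (log2 change -0.92, SE 0.05, limma adjusted p = 6.9e-06). These CPM values pool all transcript forms of XBP1 and do not measure the activity of the factor. Averaged over the list, log2(CPM + 0.5) was 8.05 and 8.06 in ERDD, 7.53 and 7.52 in ERPHF8 and 7.19 and 7.23 in ERAA.

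Oxidative stress and hypoxia genes were mixed. Of the NRF2 targets 52.4% were higher and 28.6% lower, and of the hypoxia and glycolysis genes 21.4% and 46.4%. Over all genes tested the shares were 24.8% and 28.0%. The falls of NRF2 targets were thus near that background, and the rises of hypoxia and glycolysis genes were slightly under it. HMOX1, haem oxygenase, was at 25.5 and 25.3 CPM in ERDD, 8.37 and 7.94 in ERPHF8 and 12.1 and 14.1 in ERAA (log2 change 1.58, SE 0.08, limma adjusted p = 8.2e-06), with ERAA between the other groups. FTL, the ferritin light chain, was at 3530.0 and 3543 CPM in ERDD, 2534 and 2523 in ERPHF8 and 3427 and 3985 in ERAA (log2 change 0.48, SE 0.07, limma adjusted p = 0.0011). In the opposite direction, the aldo-keto reductases AKR1C1 and AKR1C2 had log2 changes of -1.97 and -1.91, but these genes are near-identical, overlap in the table and share reads. Of 21 lines of NRF2 targets, 11 were higher and 6 lower (median 0.23), counting AKR1C3 on 2 lines. Of the 11 members without an overlapping gene, 7 were higher and 1 lower. Of 28 hypoxia and glycolysis genes, 6 rose and 13 fell (median -0.16); without ERDD library 1, ERDD library 2, ERPHF8 library 1 or ERPHF8 library 2 the rises numbered 4, 3, 4 or 4. VEGFA, the angiogenic growth factor, was at 35.2 and 33.1 CPM in ERDD, 113 and 101 in ERPHF8 and 215 and 198 in ERAA (log2 change -1.63, SE 0.07, limma adjusted p = 2.4e-06). ALDOC and PDK1 fell by 1.44 and 0.67 on the log2 scale, ALDOC with an overlapping gene.

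**Figure D3:**
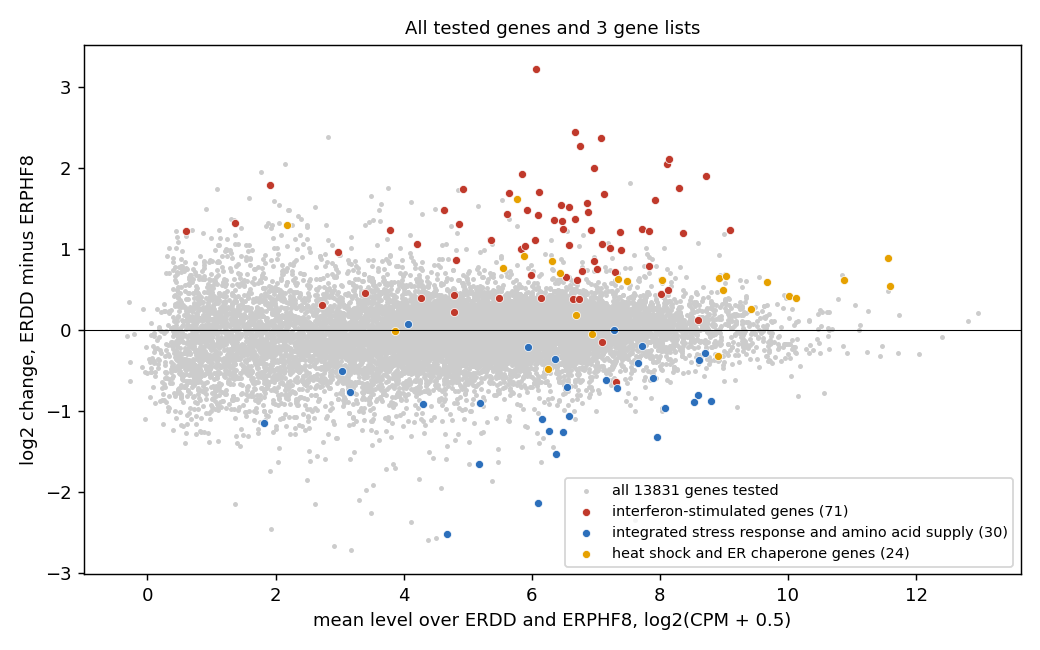
Log2 change of ERDD minus ERPHF8 (vertical axis) against the mean level of the 4 libraries as log2(CPM + 0.5) (horizontal axis) for all 13831 genes tested (grey), with the 71 interferon-stimulated genes in red, the 30 genes of the integrated stress response and amino acid supply in blue and the 24 chaperones in yellow. Most red points lie above the grey cloud and most blue points below it at middle and high levels, with IFI27 as the topmost point at 3.23.

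The translation machinery and the genes that build it moved apart. EEF1A1 and EEF2, the translation elongation factors, were among the 6 largest losses in mean CPM of genes without an overlapping neighbour. EEF1A1 was at 3798 and 3808 CPM in ERDD, 4700.5 and 4646 in ERPHF8 and 5610.4 and 6302 in ERAA (log2 change -0.30, SE 0.07, limma adjusted p = 0.0064). EEF2 was at 3001 and 3039 CPM in ERDD, 3696 and 3676 in ERPHF8 and 5063 and 5307 in ERAA (log2 change -0.29, SE 0.05, limma adjusted p = 0.0025). TPT1, whose abundant transcript is regulated together with the ribosomal proteins, was at 2457 and 2453 CPM in ERDD, 3062 and 3082 in ERPHF8 and 3708 and 4073 in ERAA (log2 change -0.32, SE 0.06, limma adjusted p = 0.0025). EEF1A1 did not pass when any 1 of the 4 libraries was left out (limma adjusted p between 0.053 and 0.062). Of 34 cytosolic ribosomal proteins, 0 rose and 17 fell, with a median log2 change of -0.18; the falls numbered 5, 4, 6 or 4 without ERDD library 1, ERDD library 2, ERPHF8 library 1 or ERPHF8 library 2, and 29 without either ERAA library. No ribosomal protein was higher in limma at an unadjusted p below 0.05 (0 of 34) or with voom on whole reads (0). The falls numbered 10 with median-of-ratios scaling and 32 with GC and span smoothed out. The ribosomal proteins, EEF1A1, ACTB, HSPA8, FTL and other abundant genes have near-identical processed copies in the genome, and how reads that fit several places were counted is not given. RPL10A, one of those called, was at 778 and 790.4 CPM in ERDD, 985 and 991 in ERPHF8 and 1235 and 1409.5 in ERAA (log2 change -0.33, SE 0.06, limma adjusted p = 0.0031). RPS6 was at 2178 and 2191 CPM in ERDD, 2586 and 2689.6 in ERPHF8 and 2947 and 3431 in ERAA (log2 change -0.27, SE 0.07, limma adjusted p = 0.015), and it missed the threshold without any 1 of the 4 libraries (adjusted p 0.057 to 0.11 by limma), with median-of-ratios scaling (0.058) and with no filter on low values (0.057). The highest log2 change in the list was 0.01 and the lowest -0.37.

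Genes for making ribosomes went the other way, with 22 of 30 higher and 1 lower (median 0.24). NOP2, an rRNA methyltransferase, was at 44.9 and 45.9 CPM in ERDD, 30.7 and 26.7 in ERPHF8 and 23.2 and 21.7 in ERAA (log2 change 0.66, SE 0.07, limma adjusted p = 3.4e-04), and BOP1 and RRS1 rose by 0.45 and 0.46, both with an overlapping gene. DNA replication genes gave 22 higher and 1 lower of 30 (median 0.18); leaving out ERDD library 1, ERDD library 2, ERPHF8 library 1 or ERPHF8 library 2 gave 14, 13, 15 or 13 rises. MCM3, a subunit of the replicative helicase, was at 908 and 925 CPM in ERDD, 582 and 579 in ERPHF8 and 317 and 308 in ERAA (log2 change 0.66, SE 0.04, limma adjusted p = 1.5e-05), and MCM5 rose by 0.46. Cyclin E1 (CCNE1), which drives entry into S phase, was at 37.8 and 37.8 CPM in ERDD, 25.3 and 24.9 in ERPHF8 and 18.0 and 16.8 in ERAA (log2 change 0.58, SE 0.06, limma adjusted p = 1.9e-04). Nuclear-encoded subunits of the respiratory chain gave 18 higher and 1 lower of 29 (median 0.23); without ERDD library 1, ERDD library 2, ERPHF8 library 1 or ERPHF8 library 2 the rises numbered 9, 9, 12 or 12. CYC1 and SDHA, of complexes III and II, rose by 0.43 and 0.33.

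Myeloid genes moved in both directions. Of 40 monocyte and macrophage genes, 17 rose and 15 fell (median 0.09); without ERDD library 2 the falls numbered 10. CSF1R, the receptor for macrophage colony-stimulating factor, was at 289 and 296 CPM in ERDD, 154 and 150.3 in ERPHF8 and 196 and 192 in ERAA (log2 change 0.94, SE 0.04, limma adjusted p = 2.4e-06). VCAN, a proteoglycan of monocytes, was at 518 and 529.9 CPM in ERDD, 226 and 273 in ERPHF8 and 319.9 and 220.4 in ERAA (log2 change 1.07, SE 0.16, limma adjusted p = 9.6e-04). The calgranulins S100A8 and S100A9, which are abundant in neutrophils and classical monocytes, fell. S100A9 was at 20.8 and 21.6 CPM in ERDD, 66.0 and 66.9 in ERPHF8 and 106 and 122 in ERAA (log2 change -1.63, SE 0.07, limma adjusted p = 2.5e-06). S100A8 was at 8.92 and 9.62 CPM in ERDD, 20.1 and 23.2 in ERPHF8 and 30.4 and 36.0 in ERAA (log2 change -1.18, SE 0.10, limma adjusted p = 8.8e-05). Both were highest in ERAA and lowest in ERDD. CEBPB, a transcription factor of inflammatory myeloid cells, was at 30.5 and 30.4 CPM in ERDD, 56.4 and 50.7 in ERPHF8 and 82.0 and 85.5 in ERAA (log2 change -0.80, SE 0.06, limma adjusted p = 4.6e-05). CD14 had a log2 change of 0.10 and did not pass (limma adjusted p = 0.35), and CD86 and CD163 rose by 0.86 and 0.83.

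Granule and granulocyte genes were mostly lower, with 1 higher and 8 lower of 14 (median -0.27). CTSG, the granule protease cathepsin G, was at 818 and 846 CPM in ERDD, 1447 and 1478 in ERPHF8 and 1674 and 1946 in ERAA (log2 change -0.81, SE 0.07, limma adjusted p = 9.1e-05). MPO, myeloperoxidase, was low throughout, at 3.05 and 2.98 CPM in ERDD, 6.23 and 6.13 in ERPHF8 and 4.40 and 3.88 in ERAA (log2 change -0.93, SE 0.10, limma adjusted p = 2.4e-04). CSF3R, the receptor for granulocyte colony-stimulating factor, was at 70.2 and 71.5 CPM in ERDD, 107 and 111 in ERPHF8 and 151 and 145 in ERAA (log2 change -0.61, SE 0.04, limma adjusted p = 3.2e-05). CTSG and CSF3R were highest in ERAA, whereas MPO lay there between ERDD and ERPHF8. MS4A3 was at 6.65 and 6.40 CPM in ERDD, 14.6 and 15.1 in ERPHF8 and 10.2 and 11.1 in ERAA (log2 change -1.13, SE 0.08, limma adjusted p = 2.8e-05). Other granule genes did not share this: PRTN3 and ELANE, neighbours of AZU1, had log2 changes of 0.08 and -0.02 (limma adjusted p = 0.19 and 0.77).

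**Figure D4:**
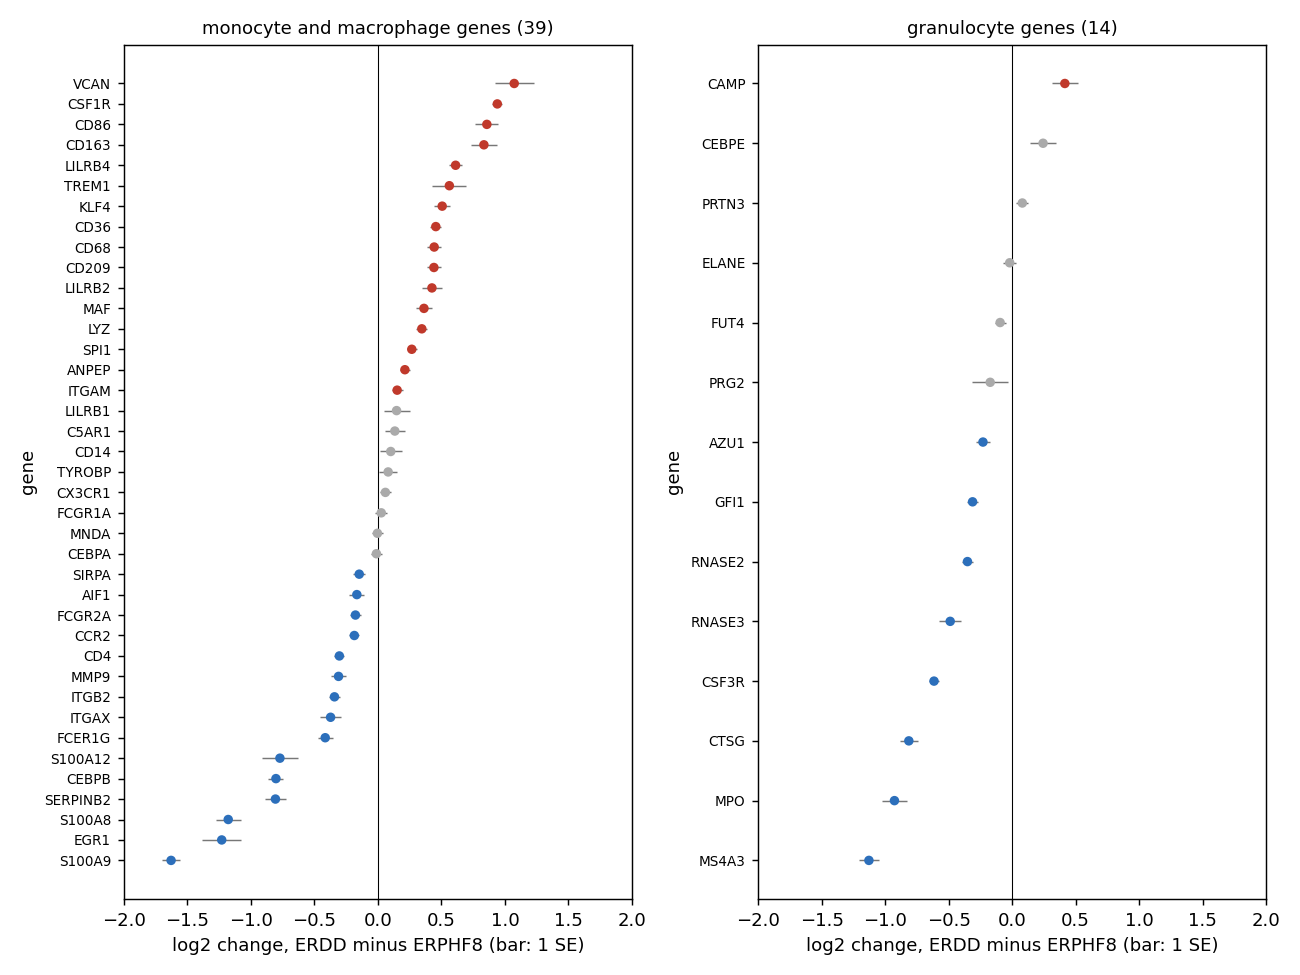
Log2 change of ERDD minus ERPHF8 (horizontal axis) for 39 monocyte and macrophage genes (left) and 14 granulocyte genes (right), 1 gene per row, with bars of 1 SE; red points were called higher, blue called lower and grey not called. VCAN at 1.07 and S100A9 at -1.63 mark the ends of the left panel, and the right panel has 8 blue points and 1 red one.

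Genes linked to MLL fusions and self-renewal changed in both directions, with log2 changes from -0.70 to 0.71. The share of rises was 20.7%, against 24.8% over all genes tested. Of 29 tested, 6 rose and 10 fell (median -0.11), a share of falls of 34.5% beside 28.0% over all genes; the rises numbered 3, 2, 6 or 4 without ERDD library 1, ERDD library 2, ERPHF8 library 1 or ERPHF8 library 2. LMO2, a haematopoietic transcription co-factor, was at 168 and 169 CPM in ERDD, 219 and 218 in ERPHF8 and 295 and 282 in ERAA (log2 change -0.37, SE 0.04, limma adjusted p = 2.8e-04). PBX3, a co-factor of HOXA9, was at 251 and 254 CPM in ERDD, 323 and 342 in ERPHF8 and 344 and 324 in ERAA (log2 change -0.40, SE 0.05, limma adjusted p = 4.2e-04), and the anti-apoptotic BCL2 at 115 and 119 CPM in ERDD, 163 and 173 in ERPHF8 and 167 and 148 in ERAA (log2 change -0.52, SE 0.06, limma adjusted p = 4.3e-04). MYB fell by 0.35 on the log2 scale (limma adjusted p = 5.3e-04), and RUNX2, which overlaps SUPT3H, by 0.70. HOXA10, which shares reads with HOXA9, rose by 0.34.

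Among chromatin enzymes that act on the marks PHF8 is known for or on related ones, 1 rose and 12 fell of 24 (median -0.16); leaving out ERDD library 1, ERDD library 2, ERPHF8 library 1 or ERPHF8 library 2 gave 7, 5, 9 or 5 falls, and with GC and span smoothed out they numbered 8. KDM6B, a demethylase of a repressive H3 mark, was at 8.63 and 9.21 CPM in ERDD, 17.4 and 17.3 in ERPHF8 and 26.6 and 23.9 in ERAA (log2 change -0.92, SE 0.07, limma adjusted p = 7.0e-05). KDM4A and KDM4B, related Jumonji demethylases, fell by 0.47 and 0.55. The histone H4 methyltransferases SUV420H1 and SUV420H2 fell by 0.29 and 0.36, and KDM1B rose by 0.24.

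Lipid and lysosomal genes showed opposed groups. Of 24 genes of sterol synthesis and uptake, 14 rose and 3 fell (median 0.20); without ERDD library 1, ERDD library 2, ERPHF8 library 1 or ERPHF8 library 2 the rises numbered 9, 11, 12 or 10, and the falls numbered 5 without either ERAA library. FDPS, which makes farnesyl diphosphate, fell by 0.45 on the log2 scale (limma adjusted p = 1.1e-04). Of 10 targets of the liver X receptors, which induce cholesterol export, 1 rose and 6 fell (median -0.24); the falls numbered 4, 5, 5 or 4 without ERDD library 1, ERDD library 2, ERPHF8 library 1 or ERPHF8 library 2. ABCA1, the cholesterol exporter, was at 20.5 and 20.4 CPM in ERDD, 39.0 and 42.0 in ERPHF8 and 61.9 and 49.8 in ERAA (log2 change -0.97, SE 0.09, limma adjusted p = 1.8e-04). MYLIP, which degrades the LDL receptor, was at 21.9 and 22.9 CPM in ERDD, 39.4 and 38.6 in ERPHF8 and 45.9 and 44.8 in ERAA (log2 change -0.79, SE 0.05, limma adjusted p = 2.5e-05). Lysosomal genes gave 17 higher and 4 lower of 30 (median 0.24), the falls numbering 6 without either ERAA library. CTSL, a lysosomal protease, was at 141 and 146 CPM in ERDD, 69.8 and 68.9 in ERPHF8 and 59.1 and 64.6 in ERAA (log2 change 1.04, SE 0.05, limma adjusted p = 6.7e-06), while TPP1 fell by 0.50 on the log2 scale. The largest fall was that of ATP6V0D2, a proton pump subunit that overlaps PSKH2, with 0.487 and 0.582 CPM in ERDD, 1.38 and 2.33 in ERPHF8 and 1.28 and 1.24 in ERAA (log2 change -1.16, SE 0.20, limma adjusted p = 0.002). LIPA, the lysosomal acid lipase, had a log2 change of 1.19, but its span contains the IFIT genes and their reads are counted in it.

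Several of the largest single changes lay outside the lists described so far. DLX3, a homeobox transcription factor, was at 11.4 and 11.3 CPM in ERDD, 1.33 and 2.33 in ERPHF8 and 1.40 and 1.49 in ERAA (log2 change 2.38, SE 0.18, limma adjusted p = 5.9e-05), with the ERPHF8 libraries unequal. SLC12A3, a sodium-chloride cotransporter, was at 6.43 and 6.86 CPM in ERDD, 1.28 and 1.18 in ERPHF8 and 1.99 and 1.51 in ERAA (log2 change 2.05, SE 0.13, limma adjusted p = 2.2e-05). EPHB2, an ephrin receptor kinase, was at 4.70 and 5.19 CPM in ERDD, 0.861 and 0.956 in ERPHF8 and 0.319 and 0.439 in ERAA (log2 change 1.95, SE 0.13, limma adjusted p = 3.2e-05). The rule that named these 3 asked for groups that do not overlap. Among the falls, INHBE, an inhibin subunit, was the largest, with 2.14 and 1.65 CPM in ERDD, 15.4 and 14.9 in ERPHF8 and 17.8 and 18.1 in ERAA (log2 change -2.72, SE 0.10, limma adjusted p = 1.6e-06). TBC1D30, a Rab GTPase-activating protein, was at 5.07 and 5.72 CPM in ERDD, 35.4 and 34.8 in ERPHF8 and 28.5 and 25.2 in ERAA (log2 change -2.60, SE 0.08, limma adjusted p = 7.5e-07). ERAA stood above ERPHF8 for INHBE and below it for TBC1D30. STC2, a secreted glycoprotein, was at 5.34 and 4.94 CPM in ERDD, 28.7 and 28.6 in ERPHF8 and 48.4 and 46.3 in ERAA (log2 change -2.37, SE 0.06, limma adjusted p = 5.7e-07). G0S2, an inhibitor of triglyceride lipase, was at 3.27 and 3.54 CPM in ERDD, 17.9 and 18.3 in ERPHF8 and 32.3 and 36.6 in ERAA (log2 change -2.25, SE 0.08, limma adjusted p = 1.2e-06). For STC2 and G0S2 the ERAA libraries were the highest of the 6.

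Other large falls had wider spread. CR1, a complement receptor, was at 1.66 and 1.82 CPM in ERDD, 8.64 and 10.3 in ERPHF8 and 15.8 and 11.7 in ERAA (log2 change -2.15, SE 0.15, limma adjusted p = 3.0e-05), and it was also lower in the derivative labelled PHF8 than in parental cells of the separate libraries (log2 change -2.34, limma adjusted p = 0.028). MS4A4E was at 1.36 and 1.72 CPM in ERDD, 10.7 and 14.4 in ERPHF8 and 8.28 and 3.95 in ERAA (log2 change -2.67, SE 0.29, limma adjusted p = 2.6e-04), with the ERAA libraries unequal. ZNF37A was at 2.63 and 3.71 CPM in ERDD, 11.9 and 19.1 in ERPHF8 and 8.43 and 3.68 in ERAA (log2 change -2.10, SE 0.35, limma adjusted p = 0.0018), and its ERPHF8 libraries differed more than its ERDD libraries. GUCY2F and FSIP2, a retinal guanylate cyclase and a sperm flagellum gene, had log2 changes of -2.46 and -2.14, with ERDD levels of 0.585 and 0.751 CPM for GUCY2F and 0.560 and 0.339 CPM for FSIP2. ACTB, beta-actin, was among the 6 largest gains in mean CPM with a log2 change of only 0.21 and lost its call without any 1 of the 4 libraries (limma adjusted p 0.11 to 0.18), with median-of-ratios or upper-quartile scaling (0.085 and 0.082) and with no filter (0.14). Of the 12 largest rises not yet given, IFI6 was at 434 and 454 CPM in ERDD, 107 and 107 in ERPHF8 and 33.3 and 38.2 in ERAA (log2 change 2.05), IFI44 had a log2 change of 1.92, and LY6E, an interferon-induced surface protein, was at 280.4 and 293 CPM in ERDD, 82.2 and 80.4 in ERPHF8 and 37.0 and 41.8 in ERAA (log2 change 1.81).

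**Figure D5:**
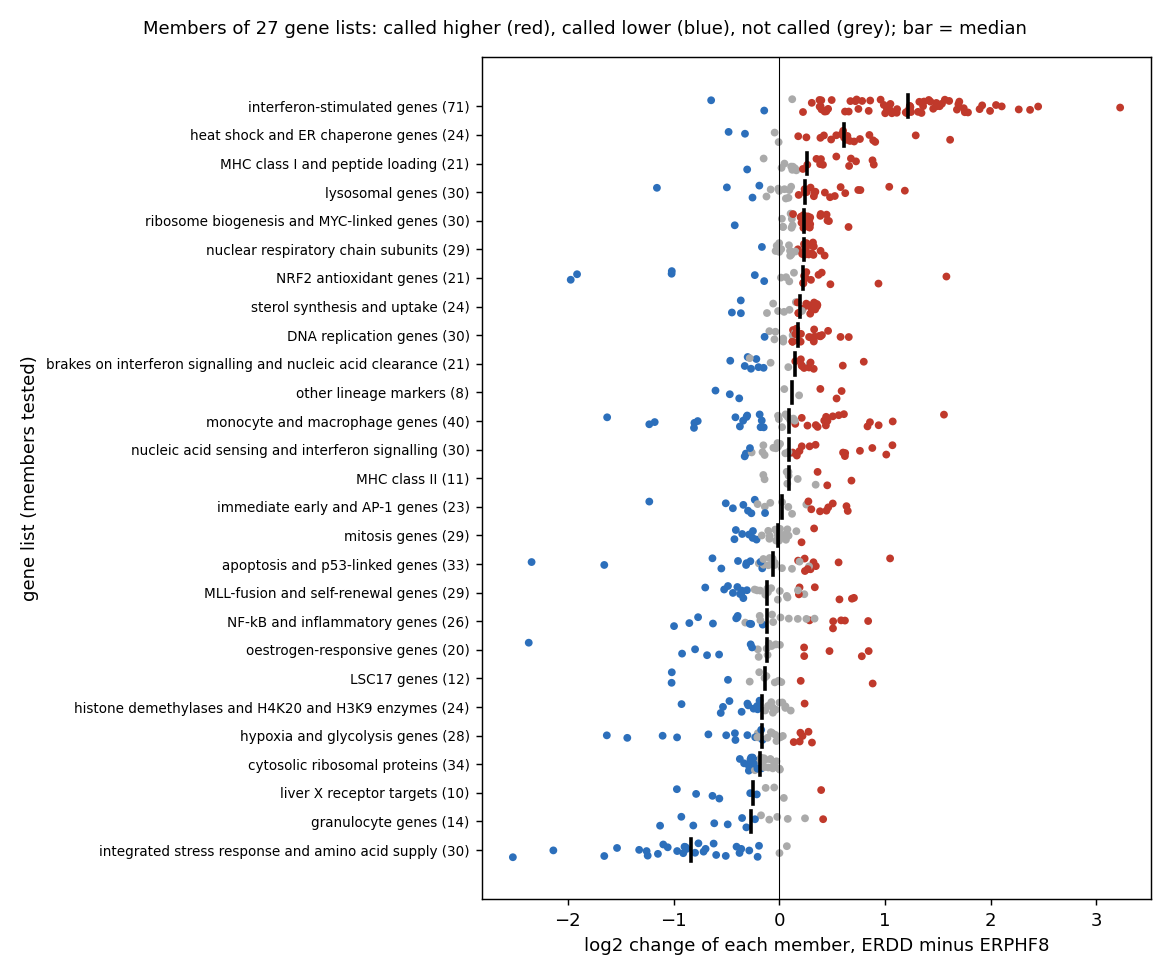
Log2 change of ERDD minus ERPHF8 for each tested member of 27 gene lists (horizontal axis; 1 list per row, with the number of members tested in parentheses, ordered by median), with red points called higher, blue called lower, grey not called and a black bar at the median. The interferon-stimulated genes stand at the top with a median of 1.22 and the integrated stress response list at the bottom with -0.84, and the chaperones at 0.61 come next in size.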

How the data were processed

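Poly(A) RNA of THP-1 derivatives was sequenced, and for each library the authors deposited RPKM values for 19784 genes with gene coordinates. The submitters' processing notes name the build hg38 and the tools STAR (2.7.0c), SAMtools (1.9) and DESeq2, while how reads were counted and with which annotation is not given in the sources used here. RPKM times the gene's span gave CPM, and 100% of the values came out as whole reads within 0.001 reads, at a depth of 40.6 to 41.3 M reads. The span includes introns, and 6569 genes overlap another gene and share reads with it, without regard to strand.

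limma 3.58.1 in R 4.3.3 was fitted to log2(CPM + 0.5), on which scale all log2 changes are given and which understates the change of low genes. The 6 day-3 libraries entered with the group as the only term, no pairing and an intensity trend, for the 13831 genes that reached 1 CPM in 2 or more of them. A gene was called when its p, adjusted after Benjamini and Hochberg, was below 0.05, and "rose" and "fell" refer to calls. The comparison, its members and the 28 gene lists were chosen with earlier results of these data known, so no list is given a p of its own. Named genes are PHF8 and ESR1, the 12 largest rises and 12 largest falls in log2 among called genes with 2 CPM or more in the higher group, groups that do not overlap and no overlapping gene, the 6 largest gains and losses in mean CPM under the same conditions, and up to 4 members of each list by smallest p. Other members were named after their values were seen. Some genes counted in the lists are not reported here by name or in the plots that name genes. Values for the derivative labelled PHF8 against parental cells come from a separate limma fit of other libraries, whose depths ran from 18.2 to 51.5 M reads. The group was the only term there too, so differences among libraries of a group stayed in the spread. A gene not called in that fit may still differ. The fit was tested on simulated data with few changed genes and no effect of GC content or span. That test cannot show how the fit behaves where calls are many and move with both, as here. Replicates differed by more than counting noise. Samples were grouped by their titles and genotype labels.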

Additional observations from a re-analysis of the deposited data

How the results depend on the processing

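Under 18 alternatives, 0 of the 135 genes followed changed sign and 6 changed call under at least 1 (ACTB, RPS6, EEF1A1, HLA-DMB and PDGFRB lost it, CD74 gained it). The number of genes changed at least 2-fold was 338, and 177 with a pseudocount of 2 and 549 with voom on whole reads. The median of a gene list counted as moved when its shift exceeded a bound set by the spread between replicates. Over all alternatives 80 list medians moved and 406 did not. With GC and span smoothed out 17 moved and 10 did not. Median-of-ratios scaling moved 12, as did the restriction to genes without an overlapping neighbour. Among genes without an overlapping neighbour, 8476 were tested and 4432 changed, 2067 higher and 2365 lower. Leaving out 1 library at a time gave 4254 to 9160 changed genes, 2010 to 4243 higher, 2244 to 4927 lower and 304 to 398 changed at least 2-fold. The most changed genes came without ERAA library 1 and the most 2-fold changes without ERPHF8 library 1. With only the 4 libraries of ERDD and ERPHF8, 9138 genes were called. Among genes without an overlapping neighbour, 47 of 49 interferon-stimulated genes were higher, 21 of 22 genes of the stress response list lower and 13 of 16 chaperones higher. In the other settings these counts were 65 to 69, 26 to 28 and 19 to 20.

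The replicate numbers are shared between the groups, but nothing in the labels pairs the libraries. A fit that took the replicate number as a block called 6801 genes, 6752 of them also without it. The deviations of same-numbered ERDD and ERPHF8 libraries from their group means correlated at 0.104 across genes, and 2 numbers are too few to decide on a pairing. A smoothing of GC content and span was added after the data had been seen. With 2 libraries per group no library could be tested as standing apart.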

Other observations

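Genes known to respond to oestrogen were looked at because, of ERDD and ERPHF8, only ERDD is labelled with 4-OHT. Of 20 tested, 5 were higher and 7 lower (25% and 35%, median log2 change -0.11), against 24.8% higher and 28.0% lower over all genes. The 4 members with the smallest p were STC2, SLC7A5, XBP1 and CTSD, of which SLC7A5 is also counted in the stress response list. SLC7A5, an amino acid transporter subunit, was at 281 and 285 CPM in ERDD, 493 and 490.4 CPM in ERPHF8 and 549 and 561 CPM in ERAA (log2 change -0.80, limma adjusted p = 5.0e-06), and CTSD, a lysosomal protease that overlaps another gene, had a log2 change of 0.78 (limma adjusted p = 2.0e-05). ERAA, which shares the 4-OHT label with ERDD, lay beyond ERPHF8, away from ERDD, for STC2, SLC7A5 and XBP1, and between the groups for CTSD. IGFBP4, an insulin-like growth factor binding protein, was at 22.5 and 22.0 CPM in ERDD, 12.5 and 11.8 CPM in ERPHF8 and 19.2 and 22.3 CPM in ERAA (log2 change 0.85, limma adjusted p = 1.6e-04), and RET, a receptor kinase, at 329.9 and 333 CPM in ERDD, 497 and 488 CPM in ERPHF8 and 395 and 362 CPM in ERAA (log2 change -0.57, limma adjusted p = 9.4e-05). For these 2, named after their values were seen, ERAA stood near ERDD for IGFBP4 and between the groups for RET. A part of the drug in any of these values was not tested, and it cannot be told apart from the form of PHF8.

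Over all genes tested, 24.8% were higher and 28.0% lower, the shares to set beside each list of this paragraph. Inflammatory targets of NF-kB gave 6 higher and 10 lower of 26 (23.1% and 38.5%, median -0.11). TNFAIP3 (A20), a brake on NF-kB, was at 3.66 and 3.27 CPM in ERDD, 7.53 and 7.26 CPM in ERPHF8 and 11.3 and 9.51 CPM in ERAA (2.13-fold lower in ERDD than in ERPHF8, limma adjusted p = 2.5e-04), whereas NFKBIE, an inhibitor of the same factor, was at 55.2 and 55.9 CPM in ERDD, 31.5 and 30.1 CPM in ERPHF8 and 30.4 and 31.2 CPM in ERAA (log2 change 0.84, limma adjusted p = 1.5e-05). Without ERDD library 1, ERDD library 2, ERPHF8 library 1 or ERPHF8 library 2 the genes called lower numbered 6, 6, 5 or 5. CDKN1A (p21), a cell cycle inhibitor, was at 184 and 189 CPM in ERDD, 91.4 and 88.4 CPM in ERPHF8 and 73.5 and 77.9 CPM in ERAA (log2 change 1.05, limma adjusted p = 3.3e-06). Its list of apoptosis and p53-linked genes had 10 higher and 10 lower of 33 (30.3% each), near the shares over all genes. Mitosis genes gave 2 higher and 7 lower of 29, with 5 or 4 higher and 11 lower without ERAA library 1 or 2. Without ERDD library 2 there were 1 higher and 4 lower, without ERPHF8 library 2 there were 1 higher and 3 lower, and with only the 4 libraries 6 higher and 11 lower. Of the others, immediate early genes gave 8 higher and 8 lower of 23 (5 lower without ERDD library 1, ERDD library 2 or ERPHF8 library 1), MHC class II genes 3 and 0 of 11 (in limma 2 were lower at an unadjusted p below 0.05 and 2 were called lower without either ERAA library, against 0 with voom on whole reads), and markers of other lineages 3 and 3 of 8. The stemness score known as LSC17 had 12 tested lines with 2 higher and 3 lower, AKR1C3 among them on 2 lines, with 6 lower without either ERAA library, and with 0 or 1 higher without ERDD library 1 or without ERDD library 2 or ERPHF8 library 2. EGR1, an immediate early transcription factor, was at 5.75 and 6.59 CPM in ERDD, 18.2 and 12.5 CPM in ERPHF8 and 10.1 and 10.3 CPM in ERAA (log2 change -1.23, limma adjusted p = 5.2e-04), with the ERPHF8 libraries unequal.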
